A study of Mus musculus with 6 samples.

Results

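The 35 genes described here encode the machinery that licenses, unwinds and copies DNA: the origin recognition and loading factors, the replicative helicase, the DNA polymerases, the sliding clamp with its loader, and the proteins that finish the new strand and assemble its chromatin. The rule names them by symbol and uses no measured value, but the members were chosen with earlier results of these data known. They were grouped by role into licensing (4 genes), helicase and GINS (12), polymerases (8), clamp and loader (6), strand finishing and single-strand binding (3) and chromatin assembly (2). All 35 were among the 21135 genes of the table, each under 1 identifier, and all 35 had the mean of at least 10 normalised reads that the test required.

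RNA was sequenced from DN3 thymocytes of C57BL/6 mice, 3 libraries with wild-type NMe and 3 homozygous for mutations in GATA sites 1 and 2 of NMe. DN3 cells are immature thymocytes without CD4 and CD8 that carry CD25 and rearrange the T-cell receptor beta gene. NMe is a distal enhancer of Myc that Notch1 binds, and GATA sites are the motifs of factors such as Gata3. Not given in the sources used here were age, sex, the way the mutation was made, and whether each library came from its own mouse. The p-values therefore measure library-to-library spread, which may be technical.

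Before a cell copies its DNA, the origin recognition complex, Cdc6 and Cdt1 load the ring of Mcm2 to Mcm7 onto origins in G1, which licenses each origin to fire once. In S phase Cdc45 and GINS join the ring to form the active helicase, DNA polymerase alpha with primase lays down primers, and polymerases delta and epsilon extend them on the clamp Pcna. In the thymus, cells at the DN3 stage divide little until a productive beta chain lets them pass beta-selection, after which they proliferate fast. Many replication genes are known targets of E2F factors, and MYC is known to promote the transcription of genes of cell growth and division.

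Depth was 38.6 to 51.3 M recovered reads per library. Values are reads divided by a size factor per library, here called normalised reads. Myc itself had 18041, 19223 and 20196 in wild type and 5562, 4612 and 6165 in mutant cells (log2 change -1.82 ± 0.12, SE, adjusted p = 4.22e-05), with no overlap. All 10 DN3 markers looked for were present, among them Il2ra (the gene of CD25) at 55810 to 61247 in the wild type and 96837 to 110890 in the mutant, and 6 of the 10 rose while Rag1 fell. Of 5 erythroid genes listed, the summed level was 8177 in wild type replicate 2 and 16.0 to 61.5 in the other libraries. The B-cell genes Ms4a1 and Pax5, the NK-cell gene Ncr1 and the epithelial and stromal genes Krt8, Krt5, Foxn1 and Pdgfra were not listed. On the second principal component of all genes, with 17.1% of the variance, wild type replicate 3 (-55.1) stood apart from the other libraries (-17.0 to 33.9).

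Replication genes were lower in the mutant. Of the 35, 24 fell and 0 rose (limma, adjusted p at most 0.05), beside 10.9% of all 17815 tested genes that fell, 7.94% that rose and 18.8% that did either. At an unadjusted p under 0.05, 26 were lower and 0 higher, beside 3115 lower and 2825 higher of all 17815 tested genes. By edgeR 23 fell and 0 rose (10.2% and 8.2% of all genes), and by DESeq2 25 fell and 0 rose (13.3% and 11.1%). The median log2 change was -0.49 over the 35 genes and 0.03 over all genes tested. None changed 2-fold. The genes that fell were 1.27-fold (Rfc2) to 1.73-fold (Mcm10) lower, with a median of 1.44-fold. Prim2 was the single gene with a positive change (0.10 ± 0.11). In 27 of the 35 every mutant library was below every wild-type library, as it was for 20.3% of all tested genes. In these bulk libraries, fewer cells in S phase and less of these RNAs per cell cannot be told apart.

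**Figure D1:**
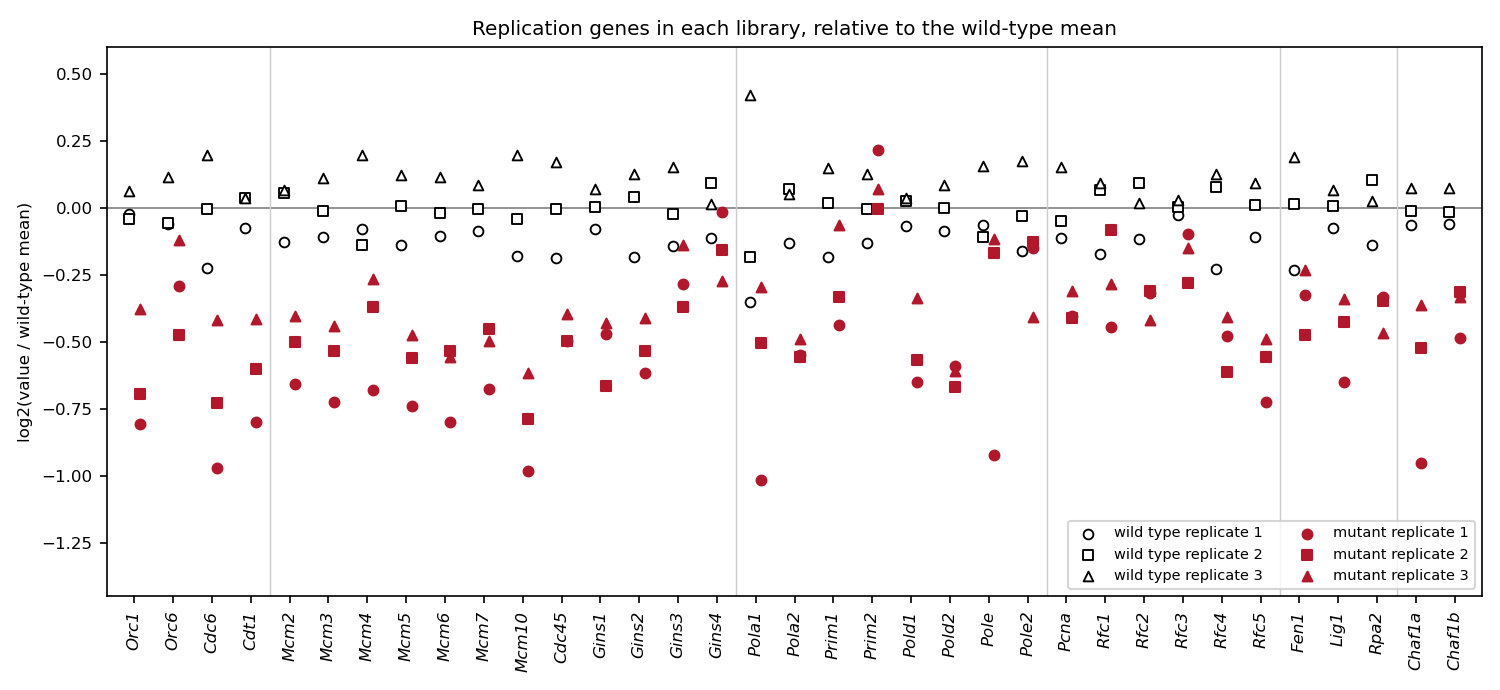
Each of the 35 genes in each library, as the log2 ratio to the gene's wild-type mean, by role from licensing at the left to chromatin assembly at the right. Open symbols are wild type, filled symbols mutant, and the symbol shape is the replicate number; mutant symbols lie below the wild-type symbols in 27 genes and overlap them in 8, and wild type replicate 3 is the highest wild-type library in 31.

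The libraries of a genotype differed from one another along most of these genes together. Wild type replicate 3 was the highest wild-type library in 31 of 35 genes, and wild type replicate 1 the lowest in 32. Mutant replicate 1 was the lowest mutant library in 20 genes, and mutant replicate 3 the highest in 24. Summed over the 35 genes the normalised reads were 337764, 364953 and 394684 in wild type and 238905, 264317 and 277418 in mutant cells. These sums made up 0.752%, 0.799% and 0.865% of all normalised reads in the wild type and 0.538%, 0.604% and 0.652% in the mutant, so that the genotypes did not overlap.

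Calls for single genes were less firm than the direction. Of the 24, 13 passed whichever of the 6 libraries was left out: Orc1, Cdc6, Cdt1, Mcm2, Mcm3, Mcm5, Mcm6, Mcm7, Mcm10, Pola2, Pold1, Pold2 and Rfc5. The count dropped to 13 without wild type replicate 2, to 16 without wild type replicate 3 (median log2 change -0.43), and to 10 in a fit without the mean-variance trend.

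**Figure D2:**
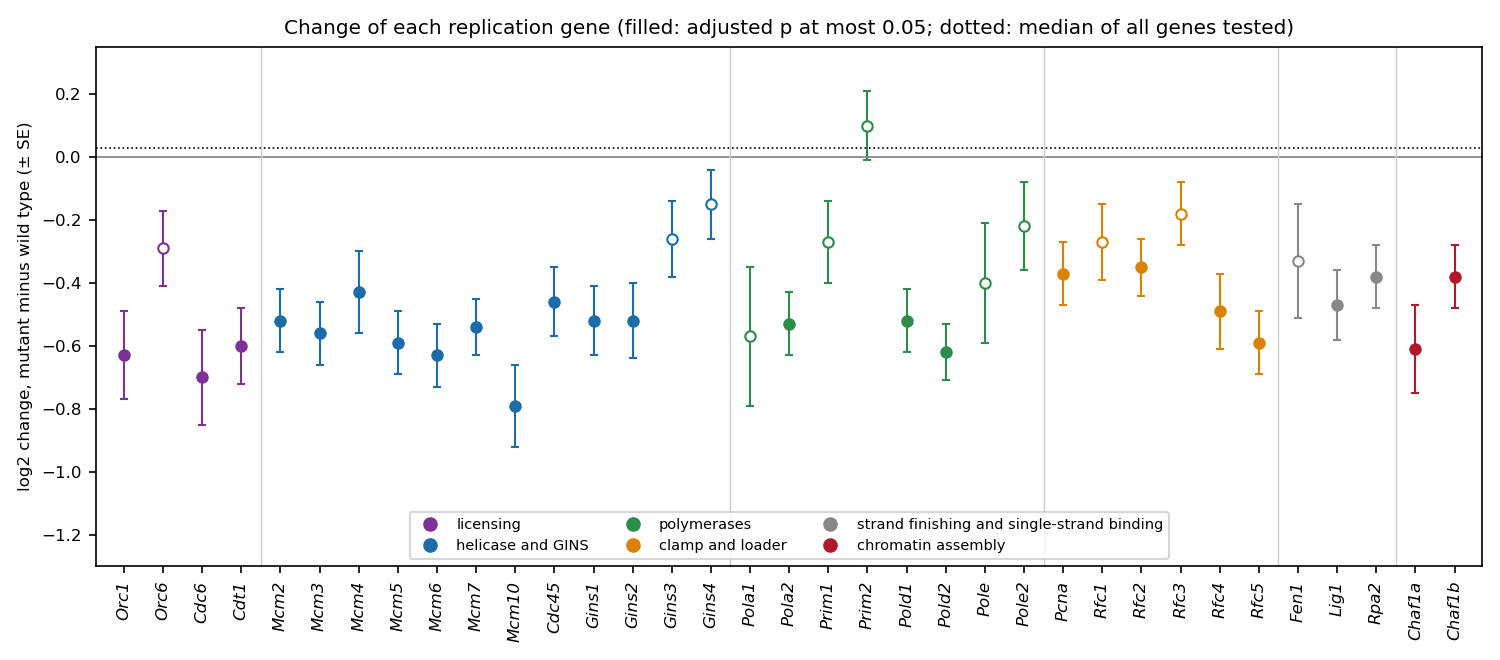
Log2 change of each gene, mutant minus wild type, with its SE from limma, by role. Filled points passed an adjusted p of 0.05 (24 of 35), open points did not, and the dotted line is the median of all genes tested (0.03); Mcm10 (-0.79) lies lowest and Prim2 (0.10) highest.

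Licensing genes fell in 3 of 4 cases, with a median log2 change of -0.61. Cdc6, the ATPase that with Cdt1 brings the helicase ring to the origin, stood at 6617, 7711 and 8868 normalised reads in the wild type and 3945, 4668 and 5789 in the mutant. It was 1.61-fold lower (-0.70 ± 0.15, adjusted p = 0.0119). Cdt1 had 4989, 5387 and 5393 in the wild type and 3017, 3465 and 3943 in the mutant (-0.60 ± 0.12, adjusted p = 0.00617). In both genes mutant replicate 1 was lowest and the genotypes were apart. Orc1, the subunit of the origin recognition complex that varies most through the cell cycle, had 1463, 1446 and 1552 in the wild type and 850.6, 919.0 and 1143 in the mutant (-0.63 ± 0.14, adjusted p = 0.0121). Orc6 did not pass (-0.29 ± 0.12, adjusted p = 0.108), although its mutant libraries (3518 to 4497) all lay below its wild-type libraries (4685 to 5289). Orc6 shares 6.9% of its exon length with Vps35 on the opposite strand, and Orc1 10.8% with Gm12743; the library kit does not mark strand, so their reads there cannot be told apart.

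The windows below run from 250 bases before to 50 bases after the annotated start of the 2 licensing genes with the smallest p, Cdt1 (chr8:122567765-122568064, plus strand) and Cdc6 (chr11:98907901-98908200, plus strand), as RefSeq gives them on GRCm38.p6, 5′ to 3′ on the strand of the gene. Capitals, here and in the windows further on, mark E2F letters (TTTCCCGC, TTTGGCGC, TTTCGCGC or TTTGCCGC), the E-box letters CACGTG that MYC and its partner MAX can bind, and CCAAT, each on either strand. They are shown because these genes moved together. Each of these 2 windows holds 1 E2F match, on the reverse strand in Cdc6. The RefSeq start of Cdc6 lies 350 bases from the GENCODE one. On GRCm38, Cdt1 (ENSMUSG00000006585.3) lies on chromosome 8 from 122568015 to 122573554 and Cdc6 (ENSMUSG00000017499.15) lies on chromosome 11 from 98907801 to 98923940.
Cdt1: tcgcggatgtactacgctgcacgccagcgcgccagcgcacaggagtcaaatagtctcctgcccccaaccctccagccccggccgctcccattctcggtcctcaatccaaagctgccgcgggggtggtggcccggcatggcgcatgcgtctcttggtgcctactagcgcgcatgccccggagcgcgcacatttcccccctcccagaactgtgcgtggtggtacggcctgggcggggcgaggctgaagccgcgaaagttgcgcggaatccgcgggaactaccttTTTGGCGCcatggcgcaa
Cdc6: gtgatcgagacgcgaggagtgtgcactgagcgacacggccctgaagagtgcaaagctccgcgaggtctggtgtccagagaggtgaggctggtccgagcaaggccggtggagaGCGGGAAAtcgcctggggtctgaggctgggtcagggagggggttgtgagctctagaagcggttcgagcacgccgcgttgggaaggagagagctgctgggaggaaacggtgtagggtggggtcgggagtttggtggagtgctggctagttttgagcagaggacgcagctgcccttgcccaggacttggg

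Helicase genes fell in 10 of 12 cases (median -0.52), and all 6 genes of the Mcm2 to Mcm7 ring were among them. Mcm6, the highest of all 35 genes per exon length, stood at 48881, 51885 and 56905 in the wild type and 30159, 36267 and 35731 in the mutant. That is 1.54-fold lower (-0.63 ± 0.10, adjusted p = 0.00269). The other ring genes, whose products sit beside it in a hexamer with 1 copy of each, moved by similar amounts: -0.52 ± 0.10 for Mcm2, -0.56 ± 0.10 for Mcm3, -0.43 ± 0.13 for Mcm4, -0.59 ± 0.10 for Mcm5 and -0.54 ± 0.09 for Mcm7. Their adjusted p ran from 0.004 (Mcm7) to 0.0424 (Mcm4). In each of the 6 the lowest wild-type library lay above the highest mutant library; for Mcm4, the closest, these were 19448 and 17783.

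Mcm4 was the least firm of the ring. It was called without mutant replicate 3 (adjusted p = 0.0321), and missed on leaving out any other library: wild type replicate 1 (0.0741), 2 (0.0663) or 3 (0.133), or mutant replicate 1 (0.106) or 2 (0.0737). It also missed with edgeR (0.0592) and with equal library totals (0.0823).

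The genes that turn the ring into a working helicase did not all follow. Mcm10, which helps the helicase to start, had the largest change of the 35, from 3725, 4096 and 4828 to 2133, 2441 and 2748 (1.73-fold lower, -0.79 ± 0.13, adjusted p = 0.00333). Cdc45, the helicase cofactor, had 4594, 5210 and 5893 in the wild type and 3708, 3703 and 3977 in the mutant (-0.46 ± 0.11, adjusted p = 0.0197). Of the 4 GINS genes, which encode a single tetramer, Gins1 (-0.52 ± 0.11, adjusted p = 0.0119) and Gins2 (-0.52 ± 0.12, adjusted p = 0.0169) fell. Gins3 (-0.26 ± 0.12, adjusted p = 0.175) and Gins4 (-0.15 ± 0.11, adjusted p = 0.382) did not pass, and both overlapped between genotypes. In Gins4 the mutant libraries were at 3901, 3535 and 3260 and the wild-type libraries at 3640, 4207 and 3977. The difference between the GINS genes was not tested.

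On leaving out wild type replicate 2, Cdc45 (adjusted p = 0.0708), Gins1 (0.0512) and Gins2 (0.0707) missed the threshold. Cdc45 and Gins2 also missed it without wild type replicate 3 (0.0651 and 0.0568) or mutant replicate 2 (0.063 and 0.0527). Gins2 shares 67.3% of its exon length with Gse1 on the opposite strand, at similar mean levels (1918 and 1589), so that part of its reads may be counted for neither or for the other gene.

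Mcm6 (chr1:128359656-128359955, minus strand) and Mcm10 (chr2:5012742-5013041, minus strand) had the smallest p of the helicase genes. Mcm6 holds 3 E2F matches, of which 2 overlap and face opposite ways, and 2 CCAAT boxes on the reverse strand. Mcm10 holds 3 CCAAT boxes and no E2F or E-box letters in this window. On GRCm38, Mcm6 (ENSMUSG00000026355.11) lies on chromosome 1 from 128331590 to 128359664 and Mcm10 (ENSMUSG00000026669.14) lies on chromosome 2 from 4989714 to 5012791.
Mcm6: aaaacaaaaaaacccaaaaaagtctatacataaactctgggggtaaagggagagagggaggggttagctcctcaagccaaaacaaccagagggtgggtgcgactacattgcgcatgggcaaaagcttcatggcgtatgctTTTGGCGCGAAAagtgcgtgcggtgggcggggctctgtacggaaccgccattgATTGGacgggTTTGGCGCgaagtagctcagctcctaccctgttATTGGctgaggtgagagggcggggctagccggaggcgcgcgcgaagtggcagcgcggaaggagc
Mcm10: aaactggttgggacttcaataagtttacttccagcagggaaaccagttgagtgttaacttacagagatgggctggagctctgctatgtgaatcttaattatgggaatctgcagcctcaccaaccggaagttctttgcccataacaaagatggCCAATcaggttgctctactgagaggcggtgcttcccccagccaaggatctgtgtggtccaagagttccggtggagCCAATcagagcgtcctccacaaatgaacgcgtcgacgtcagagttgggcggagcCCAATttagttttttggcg

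Polymerase genes were split, with 3 of 8 fallen (median -0.46). Both members of polymerase delta, which copies mainly the lagging strand, fell. Its small subunit gene Pold2 had the smallest p of the 35 genes, with 7164, 7610 and 8082 in the wild type and 5056, 4792 and 4992 in the mutant (1.54-fold lower, -0.62 ± 0.09, adjusted p = 0.00179). Its catalytic subunit gene Pold1 had 15475, 16513 and 16638 against 10326, 10921 and 12834 (-0.52 ± 0.10, adjusted p = 0.00695). The genotypes were well apart in both.

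Of polymerase alpha and primase, which make the primers, Pola2 fell, from 7477, 8610 and 8501 to 5596, 5574 and 5838 (-0.53 ± 0.10, adjusted p = 0.00455). The catalytic subunit gene Pola1 had a change as large but libraries that scattered, at 4370, 4912 and 7462 in the wild type and 2758, 3932 and 4545 in the mutant (-0.57 ± 0.22, adjusted p = 0.10). It was called by DESeq2 (adjusted p = 0.0339) and after a correction for GC content and length (0.0359). The primase subunit genes did not pass. Prim1 changed by -0.27 ± 0.13 (adjusted p = 0.161), and Prim2 by 0.10 ± 0.11 (adjusted p = 0.578) with 3792, 4139 and 4534 in the wild type and 4825, 4138 and 4363 in the mutant. All 3 of these genes overlapped between genotypes.

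Of polymerase epsilon, which copies mainly the leading strand, neither of the 2 members passed. Pole, its catalytic subunit gene, had 4048, 3923 and 4713 in the wild type and 2229, 3760 and 3904 in the mutant (-0.40 ± 0.19, adjusted p = 0.183). Mutant replicate 1 stood apart at 2229 and the other mutant libraries lay just below the wild type. Without mutant replicate 1 the change was -0.14, the smallest of the 6 such fits. Pole2 changed by -0.22 ± 0.14 (adjusted p = 0.287).

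Pold2 (chr11:5878207-5878506, minus strand) holds 3 CCAAT boxes, all on the reverse strand, and Pola2 (chr19:5964157-5964456, minus strand) holds the E-box, at -221 from its start. On GRCm38, Pold2 (ENSMUSG00000020471.11) lies on chromosome 11 from 5872180 to 5878292 and Pola2 (ENSMUSG00000024833.14) lies on chromosome 19 from 5940542 to 5964202.
Pold2: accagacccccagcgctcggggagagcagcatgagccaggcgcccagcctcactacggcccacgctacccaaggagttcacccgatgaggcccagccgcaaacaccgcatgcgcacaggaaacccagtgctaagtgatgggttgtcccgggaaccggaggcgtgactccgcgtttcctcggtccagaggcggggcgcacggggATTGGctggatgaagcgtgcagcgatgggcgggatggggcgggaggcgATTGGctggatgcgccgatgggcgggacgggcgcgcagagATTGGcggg
Pola2: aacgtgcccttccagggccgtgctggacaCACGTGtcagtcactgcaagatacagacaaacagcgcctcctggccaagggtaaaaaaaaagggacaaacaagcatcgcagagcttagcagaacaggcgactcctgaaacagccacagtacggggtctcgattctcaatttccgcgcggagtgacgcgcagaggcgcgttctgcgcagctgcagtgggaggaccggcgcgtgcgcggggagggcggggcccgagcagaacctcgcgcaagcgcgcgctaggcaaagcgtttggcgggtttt

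The clamp and its loader fell in 4 of 6 cases, with a smaller median (-0.36). Pcna, the ring that holds polymerases on DNA, had 21265, 22251 and 25545 in the wild type and 17389, 17283 and 18580 in the mutant (1.30-fold lower, -0.37 ± 0.10, adjusted p = 0.0238). The groups were apart. A processed copy, Pcna-ps2, was listed at a mean of 832.7, and reads could be shared with it. Of the loader, in which Rfc1 is the large subunit and Rfc2 to Rfc5 the small ones, Rfc5 had the largest change, from 8613, 9342 and 9886 to 5612, 6300 and 6603 (-0.59 ± 0.10, adjusted p = 0.00364). Rfc4 (-0.49 ± 0.12, adjusted p = 0.018) and Rfc2 (-0.35 ± 0.09, adjusted p = 0.0293) fell as well. Rfc1 (-0.27 ± 0.12, adjusted p = 0.154) and Rfc3 (-0.18 ± 0.10, adjusted p = 0.224) did not pass. The libraries of Rfc3 did not overlap all the same (5096 to 5300 in the wild type and 4281 to 4856 in the mutant).

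Apart from Rfc5, these calls depended on single libraries. All 3 missed without wild type replicate 2 (adjusted p 0.0714 for Pcna, 0.133 for Rfc2 and 0.0805 for Rfc4), wild type replicate 3 (0.0828, 0.0766 and 0.0606) or mutant replicate 2 (0.0759, 0.066 and 0.067). Pcna also missed without mutant replicate 1 (0.0508) and Rfc2 without mutant replicate 3 (0.075). Exons are shared with a gene on the opposite strand over 12.7% of Rfc4 (Eif4a2, at a mean of 10264 against 4681), 15.1% of Rfc2 (Lat2) and 10.7% of Rfc5 (Wsb2).

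Rfc5 (chr5:117388974-117389273, minus strand) and Rfc4 (chr16:23127681-23127980, minus strand), the loader genes with the smallest p, hold none of the letters searched, so no base is in capitals. On GRCm38, Rfc5 (ENSMUSG00000029363.14) lies on chromosome 5 from 117378103 to 117389047 and Rfc4 (ENSMUSG00000022881.14) lies on chromosome 16 from 23113943 to 23127737.
Rfc5: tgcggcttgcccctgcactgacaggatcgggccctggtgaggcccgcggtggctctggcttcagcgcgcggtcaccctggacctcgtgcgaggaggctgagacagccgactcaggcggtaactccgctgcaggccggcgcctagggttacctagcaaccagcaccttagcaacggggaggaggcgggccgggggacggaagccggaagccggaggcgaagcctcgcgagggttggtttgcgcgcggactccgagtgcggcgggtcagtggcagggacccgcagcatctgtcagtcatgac
Rfc4: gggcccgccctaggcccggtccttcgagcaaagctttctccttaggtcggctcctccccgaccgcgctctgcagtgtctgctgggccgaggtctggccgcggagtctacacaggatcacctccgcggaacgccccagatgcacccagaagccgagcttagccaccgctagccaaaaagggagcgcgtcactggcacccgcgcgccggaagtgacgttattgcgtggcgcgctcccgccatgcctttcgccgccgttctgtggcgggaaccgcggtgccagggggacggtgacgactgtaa

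Among the 3 genes of strand finishing and single-strand binding, Lig1 and Rpa2 fell. Lig1, the ligase that seals Okazaki fragments, had 8896, 9419 and 9814 in the wild type and 5980, 6983 and 7408 in the mutant (-0.47 ± 0.11, adjusted p = 0.0128). Rpa2, a subunit of the protein that coats single-stranded DNA, had 7739, 9150 and 8653 against 6758, 6691 and 6163 (-0.38 ± 0.10, adjusted p = 0.025). Both sets of libraries were apart. The call of Lig1 was lost without wild type replicate 2 (adjusted p = 0.0544). Rpa2 missed it without wild type replicate 2 (0.118) or 3 (0.0685), or mutant replicate 2 (0.0595) or 3 (0.0678).

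Fen1, the flap nuclease that trims Okazaki fragments, did not pass (-0.33 ± 0.18, adjusted p = 0.216). It had 335.1, 397.2 and 449.3 in the wild type and 314.5, 283.4 and 335.4 in the mutant, the lowest level per exon length of the 35. Of its exon length, 78.8% is shared with Gm10143 on the opposite strand (mean 92.8) and 5.4% with Tmem258. How reads that fall in 2 genes were counted is not given in the sources used here, so the level of Fen1 may be understated.

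Both chromatin assembly genes fell. Chaf1a and Chaf1b encode the large and the middle subunit of the factor that places new histones behind the fork on Pcna. Chaf1a had 5450, 5643 and 5992 in the wild type and 2944, 3961 and 4428 in the mutant (1.51-fold lower, -0.61 ± 0.14, adjusted p = 0.0161), and Chaf1b had 6639, 6854 and 7289 against 4948, 5563 and 5493 (-0.38 ± 0.10, adjusted p = 0.022). The libraries of the genotypes did not overlap in either. Chaf1a was no longer called without wild type replicate 2 (0.0536). The call of Chaf1b was lost without wild type replicate 2 (0.0779) or 3 (0.0707), or mutant replicate 1 (0.0508). Chaf1a shares 52.5% of its exon length with Ubxn6 on the opposite strand (means of 4737 and 2709).

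Levels were then set side by side per kilobase of exon. In the wild type Mcm6 led at 11264 ± 869 normalised reads per kb (SD, n = 3), followed by Pcna at 9592 ± 934. Mcm5 (6667 ± 603), Mcm3 (6653 ± 512), Mcm7 (6629, with a coefficient of variation of 6.0%) and Mcm4 (5965 ± 759) came next. Their means ± SD overlapped, but these SDs include shifts of whole libraries that most members share. Whether these genes differ within libraries was not tested. Mcm2, at 3981 ± 297, was the lowest gene of the ring. At the other end were Pole (378.8 ± 38.1), Orc1 (427.4 ± 16.3) and, lowest, Fen1 (162.6 ± 23.6). In the mutant Pcna (7396 ± 300) and Mcm6 (7298 ± 725) were level within their spread. These lengths count every annotated exon of a gene once (6956 bases for Mcm2), whether or not it is used in these cells, which was not measured.

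**Figure D3:**
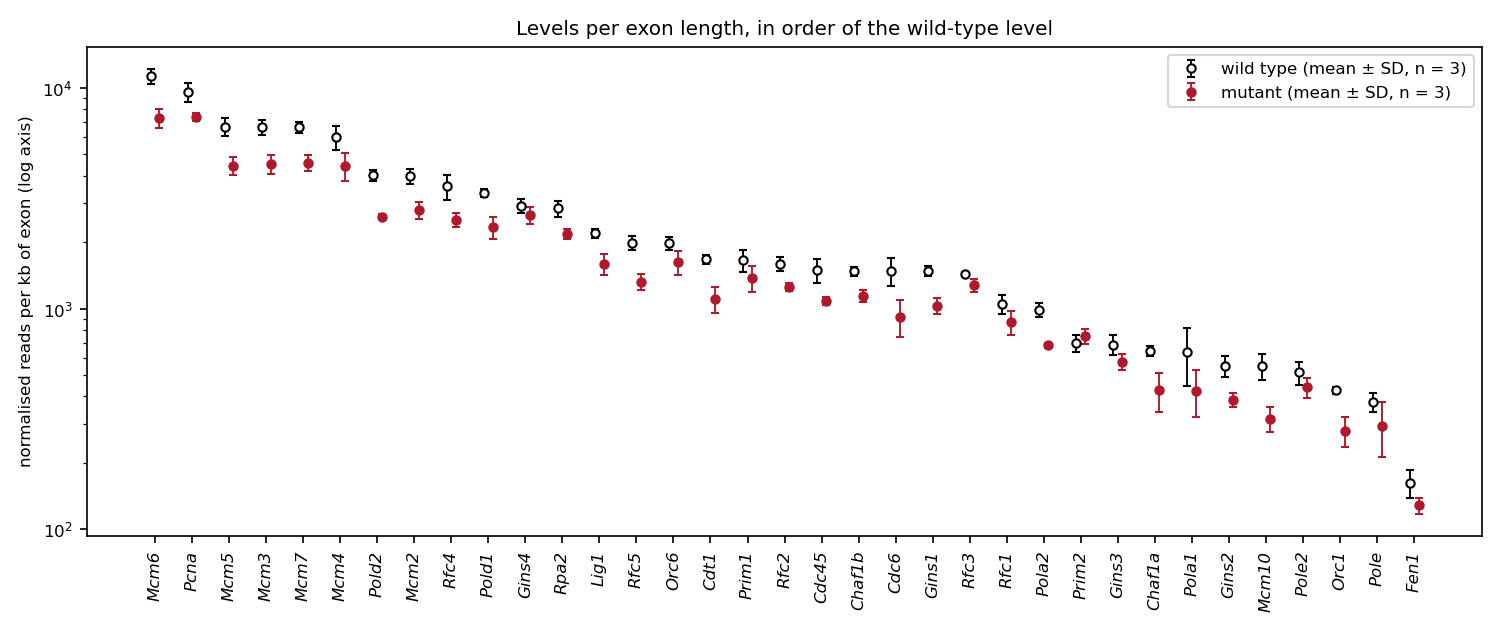
Normalised reads per kilobase of exon (log axis) for the 35 genes, in order of the wild-type mean, with the SD over 3 libraries. Wild type is open and mutant filled; levels run from 11264 (Mcm6) to 162.6 (Fen1) in the wild type, and the mutant mean is the lower one in every gene except Prim2.

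The promoter windows were searched for the same letters in 28 of the 35 genes, those with a window in the RefSeq table. E2F letters were found in 12 of 28 (42.9%), against 4.18% of the 10753 tested genes with a window of the same length. The 12 were the licensing genes Orc1, Cdc6 and Cdt1, the helicase genes Mcm3, Mcm5, Mcm6, Mcm7 and Gins3, the polymerase genes Pola1, Pold1 and Pole2, and the loader gene Rfc3. Among members that fell the letters were in 8 of 20, and among those that did not pass in 4 of 8. E-box letters were in 4 of 28 (14.3%, against 10.1%): Pola2, Rfc1, Lig1 and Chaf1a, of which Rfc1 did not pass. No member held both. CCAAT was in 18 of 28 (64.3%, against 38.8%). The median GC content of the windows was 58.8% in the members and 60.3% in all genes. Such matches are letters in a short window, and nothing was measured of binding at them.

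**Figure D4:**
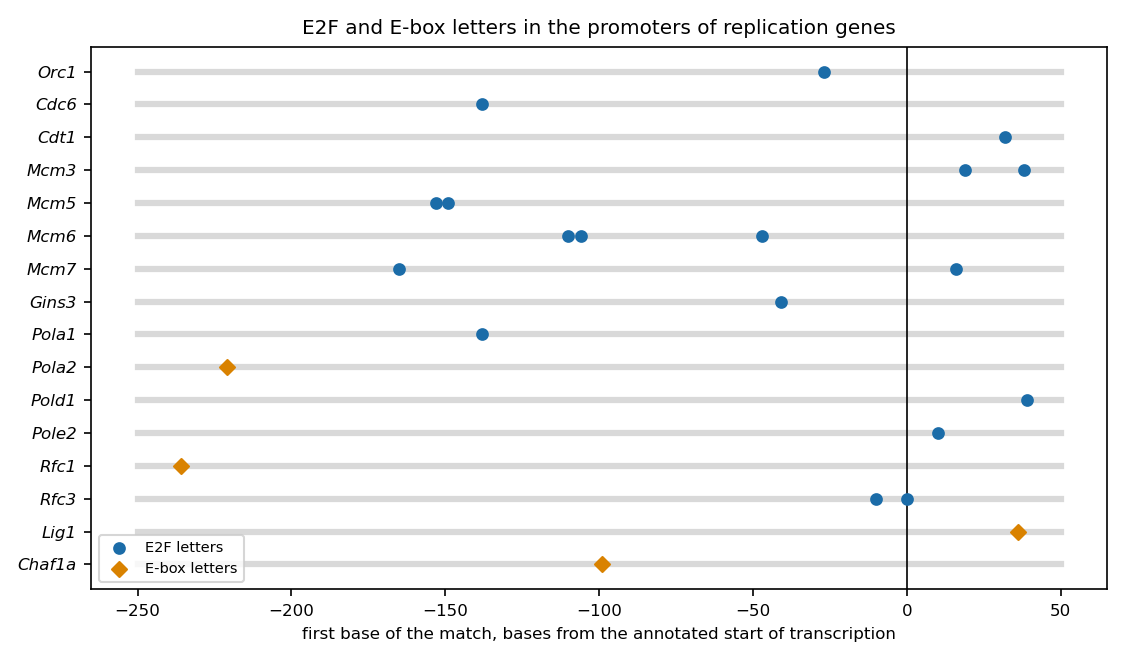
Position of E2F letters (circles) and E-box letters (diamonds) in the 300 base windows of the 16 members that hold either, in bases from the annotated start of transcription (0). E2F matches lie between -165 (Mcm7) and 39 (Pold1), and the 4 E-boxes lie in genes without E2F letters.

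Of 40 other genes of replication, kept in a separate list, 10 fell and 1 rose, with a median log2 change of -0.30. Of all tested genes, 10.9% fell and 7.94% rose. Whether the list of 40 differs from the members was not tested. Pole3, a histone-fold subunit of polymerase epsilon (5540 ± 297 to 3757 ± 150, -0.56 ± 0.10, adjusted p = 0.00342), and Ssrp1 of the histone chaperone FACT (23631 ± 683 to 16870 ± 1126, -0.49 ± 0.09, adjusted p = 0.00458) had the smallest p, and held their calls whichever library was left out. Rnaseh2a (-0.41 ± 0.10), Pold3 (-0.39 ± 0.10), Dna2 (-0.48 ± 0.13), Mcmbp (-0.41 ± 0.10), Orc3 (-0.37 ± 0.11) and Nasp (-0.39 ± 0.12) fell too, each call lost on leaving out at least 1 library. Rnaseh2b (-0.36) and Rpa1 (-0.44), which fell, and Pold4 (0.50), a small subunit of polymerase delta and the gene that rose, are named because of their values, outside the rule. These 3 calls too were lost on leaving out at least 1 library.

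The count of 10 was the less firm part. It was 2 without wild type replicate 2, 3 without wild type replicate 3 or mutant replicate 2, 4 without mutant replicate 1 and 5 with equal library totals. None of 5 origin firing genes (Recql4 -0.41 ± 0.14, Topbp1 -0.34 ± 0.13, Donson -0.29 ± 0.13, Ticrr -0.22 ± 0.22) and none of 6 fork protection genes (Wdhd1 -0.50 ± 0.17, Timeless -0.34 ± 0.13, Mms22l -0.27 ± 0.13, Tipin -0.21 ± 0.11) passed by limma. At an unadjusted p under 0.05, 3 and 2 of them were lower, beside 3115 of all 17815 tested genes. DESeq2 called 1 gene lower in each of these lists, and edgeR 0. Gmnn, the inhibitor of Cdt1, did not pass either (-0.37 ± 0.12, adjusted p = 0.0568), though it did by DESeq2 (0.0333) and with library weights (0.0327), robust empirical Bayes (0.0453) or a filter at a mean of 50 (0.0465).

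Genes that supply deoxynucleotides in S phase fell in 4 of 7 cases, beside 10.9% of all tested genes, with a median of -0.41. Tk1, the thymidine kinase gene, went from 5642 ± 574 to 3835 ± 194 (-0.55 ± 0.11), and its call held whichever library was left out. Rrm1 changed by -0.57 ± 0.13 and Dut by -0.41 ± 0.10. On leaving out wild type replicate 3, Rrm1 just missed the threshold (adjusted p = 0.05, rounded), and Dut missed it without wild type replicate 2 (0.085) or 3 (0.0589) or mutant replicate 2 (0.0712). Of 17 genes that control the passage from G1 to S, 2 fell and 3 rose, beside 10.9% and 7.94% of all tested genes, with a median of -0.17. E2f1, an activator of replication genes, fell from 4808, 4577 and 4919 to 2848, 3557 and 3867 (-0.49 ± 0.12, adjusted p = 0.0222), and so did the phosphatase gene Cdc25a (-0.45 ± 0.11). The repressor gene E2f7 (0.80 ± 0.19), the cyclin gene Ccnd3 (0.81 ± 0.10) and the inhibitor gene Cdkn1b (0.83 ± 0.22, outside the rule) rose, the first with 544.6, 671.8 and 662.0 in mutant libraries against 278.9, 403.0 and 410.2. The other E2F genes of the list, also outside the rule, did not pass: E2f2 (-0.34), E2f3 (-0.43), E2f4 (-0.17) and E2f8 (0.06). Without mutant replicate 3, E2f2 did (adjusted p = 0.03). E2f1 missed the threshold without any 1 of the wild-type libraries (adjusted p 0.0597 to 0.0636). E2f7 did so without wild type replicate 1 (0.0515) or mutant replicate 2 (0.0605), Cdc25a without wild type replicate 1 (0.0622) or 2 (0.0968) or mutant replicate 1 (0.0548) or 2 (0.0554), and Cdkn1b without wild type replicate 1 (0.0576) or 3 (0.084) or mutant replicate 3 (0.0542).

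Of 24 mitosis genes 2 fell (Cdk1 -0.46 ± 0.12 and Cdc20 -0.37 ± 0.11), beside 10.9% of all tested genes, with a median of -0.19. By edgeR 1 fell and by DESeq2 5. At an unadjusted p under 0.05, 7 were lower, beside 3115 of all 17815 tested genes. Without mutant replicate 3, 6 mitosis genes fell by limma. Both calls were lost without wild type replicate 2 (adjusted p 0.0708 and 0.108) or 3 (0.0881 and 0.142), or mutant replicate 1 (0.0744 and 0.114), among others. Bub1b (-0.50 ± 0.16) and Plk1 (-0.45 ± 0.15) did not pass, but did without mutant replicate 3 (0.00818 and 0.018). Relative to the wild-type mean, the median of the mitosis genes was -0.43, -0.23 and 0.11 in mutant replicates 1, 2 and 3, and that of the replication members -0.59, -0.50 and -0.40. Mutant replicate 3 thus lay within the wild-type range of the mitosis list (-0.18 to 0.19) and below the wild-type range of the replication list (-0.11 to 0.11). Whether the lists differ was not tested.

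**Figure D5:**
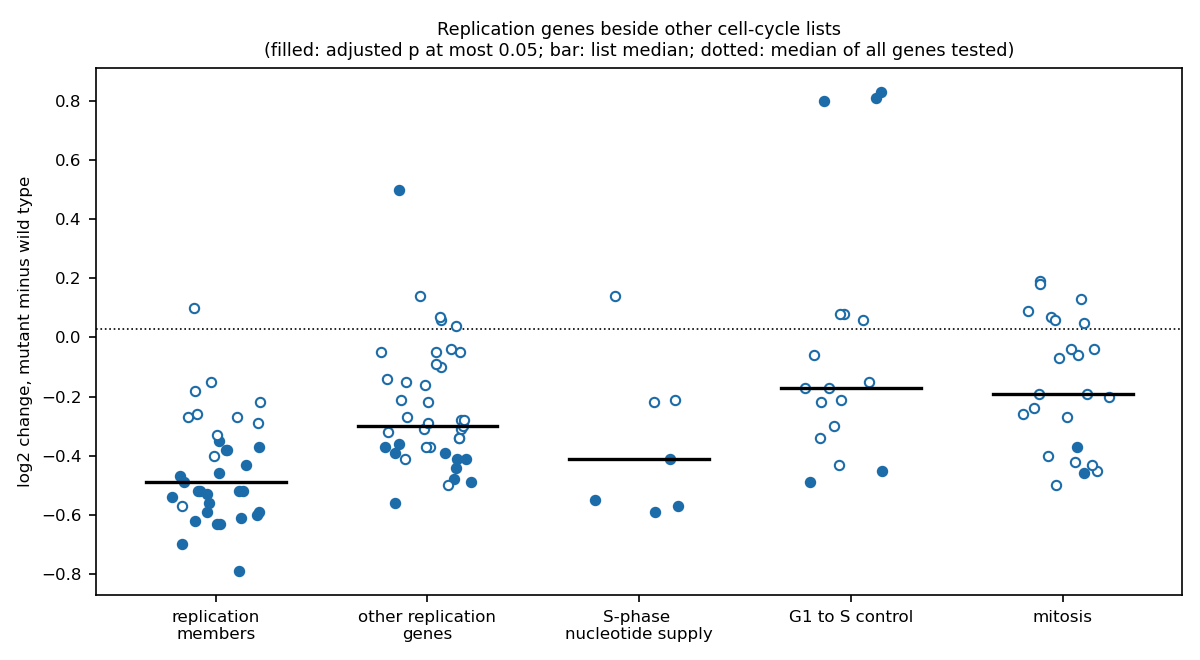
Log2 change, mutant minus wild type, of every tested gene of the replication members (35), other replication genes (40), S-phase nucleotide supply (7), G1 to S control (17) and mitosis (24). Filled points passed an adjusted p of 0.05, bars are list medians (-0.49, -0.30, -0.41, -0.17 and -0.19), and the dotted line is the median of all genes tested (0.03).

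Some other lists moved with genotype in the same libraries. Markers of earlier thymocytes (6 genes) summed to 4328 to 5143 in the wild type and 2716 to 3796 in the mutant, and 2 of them, Bcl11a and Mef2c, fell. Kit, which made up most of these sums, did not pass (adjusted p = 0.0715). Neither did Spi1 (-0.65), nor Lyl1 (0.69) and Hhex (0.63), whose changes were positive. Of 5 genes of gamma-delta T cells 4 were tested and rose (sums of 5736 to 7351 and 10867 to 13700), while Zbtb16, a defining gene of innate-like ones, had at most 21.7 in any library. Genes of the double-positive stage summed to 4563 to 6995 in the wild type and 3533 to 4465 in the mutant, with Cd4 at 24.4 to 85.4 and Cd8a at 20.1 to 55.4 over all libraries. Immediate early and heat shock genes, a sign of cell handling, summed to 422945 to 690635 in the wild type and 503257 to 876279 in the mutant. These ranges overlap. Of the 10 genes 2 rose, Egr1 and Ier2, beside 7.94% of all tested genes. Hspa1b and Hspa1a, which made up much of these sums, did not pass (adjusted p = 0.127 and 0.198). Hspa8, whose change was negative (-0.42), did not pass either. Of the NK-cell genes Nkg7 rose (sums of 14296 to 17529 and 19873 to 31789). Gzma, which made up much of these sums, did not pass (adjusted p = 0.312), and neither did Klrb1c (0.672). No B-cell gene (2352 to 2777 and 2425 to 3871, mostly Cd79b), myeloid gene (1241 to 1794 and 1313 to 2287, mostly Lyz2) or epithelial gene (4112 to 5007 and 4235 to 7186, mostly Epcam) passed. The part of these lists in the change of the replication genes was not tested. Without wild type replicate 2, the library with the erythroid genes, the median change of the members was -0.49, as with it, but 13 members were called in place of 24. The part of the erythroid RNA in this was not tested.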

How the data were processed

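Gene-level RNA sequencing values were analysed for 3 wild-type and 3 mutant libraries, grouped by their titles. Per the labels' protocols, full-length cDNA was amplified with the SMART-Seq v4 kit and made into unstranded Nextera XT libraries. Per the submitters' processing notes, the tools were featureCounts, STAR (2.5.3) and DESeq2 (1.20.0), with the builds GRCm38 and mm10. Not given in the sources used here were counting options, annotation release and any filter. Gene values were deposited as a signal, which is the read count over a size factor of each library. All 126810 values (100.0%) were whole multiples of 1 read within 0.1 reads, which gave the reads and depths.

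Identifiers were matched to GENCODE M21 on GRCm38 (21100 of 21135); promoter windows came from RefSeq on GRCm38.p6. Limma 3.58.1 in R 4.3.3 (mean-variance trend, two-sided) was fitted on log2(value + 1) over the 17815 genes whose mean reached 10, with Benjamini-Hochberg adjustment over all of them. Unless another tool is named, every adjusted p is from this fit; log2 changes carry SE and levels SD (n = 3 each). Fold changes on this scale understate those of rare genes, which no member is. Within groups, libraries differed by more than sampling noise (chi-square of 26.7 to 55.3 per degree of freedom) and none was merged. Tested on simulated counts, the fit made more false calls than its nominal share and missed most changes as small as those of the members. That simulation changed far fewer genes than were called here, taken from all levels above the filter. Its shares therefore do not carry over to the members, for which single calls and missed calls are both still uncertain. The named genes are all members, Myc, and up to 4 genes with the smallest p in each other list; promoters were shown for the 2 fallen members with the smallest p in 4 subgroups. Protein sequences were not used here. Some genes that the rule takes are left out of the text. Members and lists were chosen with earlier results of these data known. Alternatives were other pseudocounts, filters, scalings, variance models, library weights, a replicate block, leaving out each library, edgeR 4.0.16 and DESeq2 1.42.0 on the recovered reads, and a correction for GC content and length chosen after seeing the data.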

Additional observations from a re-analysis of the deposited data

How the results depend on the processing

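The 35 genes kept their direction under all 19 alternatives. The count that fell was 10 without the mean-variance trend and 13 without wild type replicate 2, and 13 to 23 over the fits that leave out 1 library; under the other alternatives it was 23 to 25. The calls of Cdt1, Mcm3, Mcm5, Mcm6, Mcm7, Mcm10, Pola2, Pold2 and Rfc5 held in all 19. Without the trend 14 calls were lost: Orc1, Cdc6, Mcm2, Mcm4, Cdc45, Gins2, Pold1, Pcna, Rfc2, Rfc4, Lig1, Rpa2, Chaf1a and Chaf1b. The median change of the members ranged from -0.55 to -0.43. The count of other replication genes that fell was 5 with equal library totals, 2 without the trend, and 2 to 11 when 1 library was left out. Over all genes 3352 changed, against 1916 without the trend and 1896 to 2793 when 1 library was left out; the split of 1414 higher and 1938 lower became 1828 and 1648 with equal totals, where the median of all genes was 0.08. The causes were not tested.

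With the replicate number as a block, 25 members fell (Pola1 in addition) and 3066 genes changed. Over all tested genes, same-numbered libraries did not deviate together (r of -0.02, -0.07 and -0.01). Over the members, replicate 1 had the lowest median and replicate 3 the highest in both genotypes. Relative to the wild-type mean, these log2 medians ran from -0.11 to 0.11 in wild type and from -0.59 to -0.40 in the mutant. Whether the numbers pair the libraries cannot be told from these values. Depth does not limit these genes, of which the rarest, Fen1, had at least 283.4 normalised reads in every library.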
